A study of Rattus norvegicus with 30 samples.

Results

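The Notch receptors Notch1 and Notch4, the ligands Dll4, Dll1, Jag1 and Jag2, and the target genes Hey1, Hey2, Heyl and Hes1 were examined in CD31-positive cells of rat lung. These 10 genes were chosen by gene name, each matched 1 row of the 30562 in the table, and all 10 passed the filter on low counts. CD31 is a surface protein of endothelial cells, and the cells were taken with CD31 microbeads. Wild-type rats underwent sham surgery or a Glenn procedure, which joins a caval vein to a pulmonary artery and so keeps blood from the liver out of that lung. The 30 libraries form 6 groups of 5, all 3 weeks after surgery: sham or Glenn surgery, each on a vitamin A control diet, a vitamin A deficient diet or a vitamin A excess diet. The labels give neither strain nor age and do not say whether each library is a different animal, so the p-values measure the spread between these libraries, which may in part be technical.

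Notch receptors are cut in steps when a ligand on a neighbouring cell pulls on them, and the freed inner part enters the nucleus and joins the DNA-binding protein RBPJ to switch on genes of the Hes and Hey families. In blood vessels the pathway restrains sprouting by tip cells, favours arterial fate and, in smooth muscle cells and pericytes (mural cells), helps the vessel coat to mature. Notch1 and Notch4 are the receptors of endothelial cells, whereas Notch3 and Heyl are best known from mural cells.

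Library totals lay between 22.03 and 77.65 M counts (median 39.97 M). Levels are given as CPM, that is, counts per M counts of the library after TMM scaling, and a gene is said to have changed when its edgeR adjusted p was under 0.05. The 10 endothelial markers were all present, at a summed 9106 to 11230 CPM in sham libraries and 6657 to 9456 CPM in Glenn libraries, and the 8 type 2 alveolar epithelial markers summed to 37800 to 64640 CPM (median 45960) and 26700 to 60800 CPM (median 32500). Of the 30 libraries, 8 have names from a separate number range (series B), and 13 had high RT1-CE16, a histocompatibility gene whose level splits the libraries. The sham excess libraries were all of series A and all low in RT1-CE16, while 3 of the 5 Glenn excess libraries were of series B and high. On the deficient and excess diets series A and low RT1-CE16 marked the same libraries. These were 2 sham and 3 Glenn deficient libraries, and 5 sham and 2 Glenn excess libraries. Fits on either subset are therefore not separate checks on these diets. The series was a term in every test of the main fit, and it passed the threshold in none of the 10 genes (edgeR adjusted p from 0.449 to 0.999). Only the sham deficient, Glenn deficient and Glenn excess groups held both series, so this does not show that the series had no effect.

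Averaged over the diets, 7 of the 10 Notch genes changed after Glenn surgery, 6 upward and 1 downward. In the same contrast 48.2% of the 16171 genes tested changed (23.4% higher and 24.7% lower), so calls were common in this contrast. The median log2 change of the 10 genes was 0.29, against -0.01 over all genes tested. Heyl rose 2.615-fold, and the other 5 that rose (Jag1, Hey1, Dll4, Notch4 and Hes1) did so by 1.19-fold to 1.35-fold. Notch1 fell to 0.82 of its sham level. Heyl alone among the 10 had every Glenn library above every sham library, a pattern found in 5.83% of all genes in either direction and in 3.1% upward. In bulk samples such as these, fewer cells of a type and less RNA per cell cannot be told apart.

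**Figure D1:**
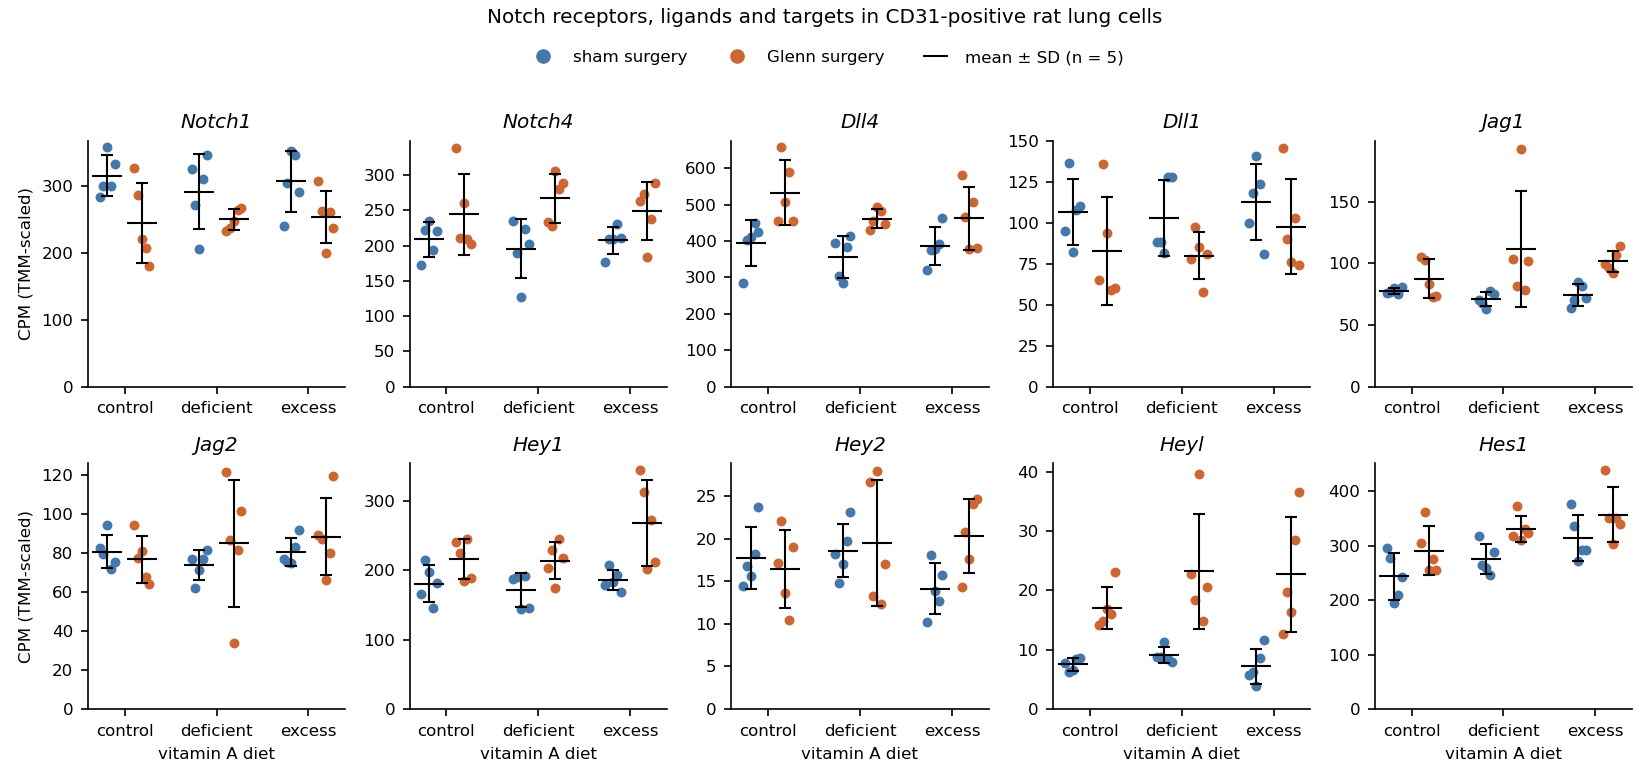
Level of each Notch gene in CPM (vertical axis, from 0) on the 3 diets (horizontal axis). Points are libraries, blue for sham and orange for Glenn surgery, and black bars are the mean and SD of 5 libraries. Heyl separates the operations on every diet, while the other genes shift by less than a factor of 2 and mostly overlap.

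On single diets fewer of the 10 passed the test: 2 on the control diet (Dll4 and Heyl), 4 on the deficient diet (Notch4, Dll4, Jag1 and Heyl) and 3 on the excess diet (Jag1, Hey1 and Heyl), all upward. The shares of all genes that changed were 24.9%, 27.4% and 21.9%, and those that rose 11.8%, 13.7% and 11.6%. The surgery effect did not differ between diets past the threshold in any of the 10 genes (interaction adjusted p from 0.971 to 0.999, edgeR quasi-likelihood test; 0 of the 10 had an unadjusted p under 0.05, against 5.72% of all genes, and 0 were called by DESeq2 or limma voom). Over all genes the interaction was called for 0.00618%. A call on one diet and none on another therefore shows no difference between the diets.

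**Figure D2:**
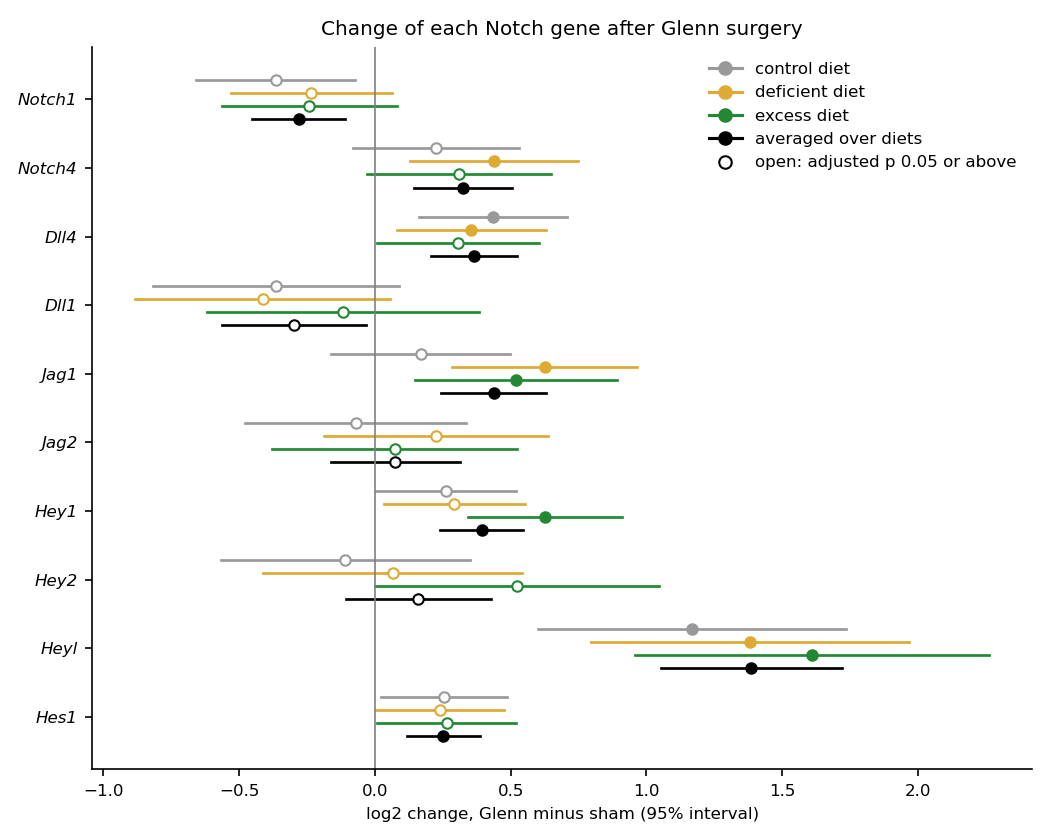
Log2 change of each Notch gene, Glenn minus sham (horizontal axis), with 95% intervals, for each of the 3 diets and for their average. Filled points passed the test. The intervals of the 3 diets overlap within each gene, and those of Heyl are the farthest right, at 1.17, 1.38 and 1.61.

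Both endothelial receptors changed, in opposite directions. Notch1 (ENSRNOG00000019322), the main receptor of arterial and tip-cell control, ranged from 206 to 359 CPM (median 305) in the 15 sham libraries and from 181 to 326 CPM (median 248) in the 15 Glenn libraries. The log2 change was -0.28 (SE 0.08, edgeR adjusted p 0.00683), with wide overlap. It was negative on each diet (-0.37, -0.23 and -0.24, in the order control, deficient, excess) and passed the test on none of them alone (adjusted p 0.0607, 0.245 and 0.304). Among the 17 libraries low in RT1-CE16 the averaged change was -0.16 and no longer passed (adjusted p 0.2). On the control diet it did pass without Glenn control replicate 1 (-0.49, adjusted p 0.0108) or replicate 2 (-0.43, 0.0381), and with limma voom (-0.50, 0.00569) or the RT1-CE16 level as the term (-0.40, 0.0396). Among libraries low in RT1-CE16, however, the control-diet change shrank to -0.056 (0.896), and the excess-diet change was -0.099 there (0.742).

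Notch4 (ENSRNOG00000000442), a receptor nearly restricted to endothelium, stood at 127 to 235 CPM (median 210.0) in sham libraries and 183 to 338 CPM (median 261) in Glenn libraries. It rose by 0.32 on the log2 scale (SE 0.09, edgeR adjusted p 0.00314). On the deficient diet the sham libraries held 235, 189, 127, 223 and 203 CPM and the Glenn libraries 233, 228, 305, 280.2 and 288 CPM. Of these, 3 Glenn libraries lay above every sham library and the other 2 within the sham range. The deficient-diet change of 0.44 (SE 0.15, adjusted p 0.0293) lost its call without any 1 of sham deficient replicates 2 and 3 or Glenn deficient replicates 3, 4 and 5 (adjusted p 0.0693 to 0.0883), in series A alone (0.27, 0.36), among libraries low in RT1-CE16 (0.27, 0.361) and when only those 2 groups were fitted (0.45, 0.0571). Series A and low RT1-CE16 held the same 2 sham and 3 Glenn libraries on the deficient diet. The control-diet change of 0.23 was 0.13 with limma voom (0.544) and 0.46 among libraries low in RT1-CE16 (0.141). The group means of Notch4 ran from 195 CPM in sham deficient to 267 CPM in Glenn deficient, with all 3 sham means below all 3 Glenn means. Those of Notch1 ran the other way, from 244 CPM in Glenn control to 315 CPM in sham control.

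Among the ligands, Dll4 and Jag1 rose while Dll1 and Jag2 did not pass the test. Dll4 (ENSRNOG00000014011), the endothelial ligand through which tip cells restrain their neighbours, held 285, 403, 412, 449 and 425 CPM in the sham and 455, 658, 507, 591 and 456 CPM in the Glenn libraries on the control diet. On the deficient diet it held 394, 305, 285, 384 and 414 CPM in sham libraries and 431, 456, 493, 483 and 446 CPM in Glenn libraries. On both diets every Glenn library lay above every sham library, which was so in the upward direction for 7.78% and 10% of all genes. On the excess diet the sham libraries held 321, 376, 379, 391 and 465 CPM and the Glenn libraries 581, 465, 378, 507 and 381 CPM, and these overlapped.

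The log2 changes of Dll4 were 0.43 (SE 0.13, edgeR adjusted p 0.0154), 0.36 (SE 0.13, 0.0483) and 0.31 (SE 0.15, 0.138) on the control, deficient and excess diets. Averaged, the change was 0.37 (SE 0.08, adjusted p 0.000264). The lowest sham control library was replicate 1, without which the control-diet change was 0.34 and did not pass (adjusted p 0.0567), and without Glenn control replicate 2 it was 0.35 (0.0612). On the deficient diet the call was lost without any 1 of 7 libraries, namely sham deficient replicates 1 to 3 and Glenn deficient replicates 2 to 5 (adjusted p 0.0619 to 0.171), whereas the averaged call held without each of the 30. The deficient-diet call was also lost in series A alone (0.40, 0.157), among libraries low in RT1-CE16 (0.40, 0.171) and with no filter (0.36, 0.0621). Series A and low RT1-CE16 held the same 2 sham and 3 Glenn libraries there. The control-diet change was 0.66 among libraries low in RT1-CE16 (0.0321).

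Jag1 (ENSRNOG00000007443), a ligand found in arterial endothelium and in mural cells, held 70.5, 67.6, 63.1, 77.2 and 75.4 CPM in sham libraries and 104, 81.7, 193, 78.1 and 102 CPM in Glenn libraries on the deficient diet. On the excess diet it held 63.6, 70.4, 85.0, 81.4 and 71.8 CPM in sham libraries and 99.7, 95.9, 91.9, 107 and 114 CPM in Glenn libraries. On both diets every Glenn library lay above every sham library, as for 10% and 8.59% of all genes. On the control diet the sham libraries sat close together, at 76.0, 77.0, 80.1, 75.4 and 80.5 CPM, and the Glenn libraries lay on both sides of them, at 105, 103, 83.2, 72.9 and 73.3 CPM.

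The log2 changes of Jag1 were 0.17 (control diet; SE 0.16, edgeR adjusted p 0.494), 0.62 (deficient; SE 0.17, 0.00545) and 0.52 (excess; SE 0.18, 0.0396), and 0.44 (SE 0.09, 0.000344) on average. Glenn deficient replicate 3 was far above the other libraries of its group, and without it the deficient-diet change was 0.37 (adjusted p 0.0103) and the averaged one 0.32 (6.36e-05). The excess-diet call was lost without any 1 of sham excess replicates 1, 2 and 5 or Glenn excess replicates 1, 4 and 5 (adjusted p 0.0569 to 0.0876), in series A alone (0.41, 0.242), among libraries low in RT1-CE16 (0.41, 0.297) and with no filter (0.52, 0.0604). Series A and low RT1-CE16 held the same 5 sham and 2 Glenn libraries on the excess diet. The deficient-diet call was lost when only the sham deficient and Glenn deficient groups were fitted (0.60, 0.0894). The control-diet change was 0.086 with limma voom (0.718) and 0.35 among libraries low in RT1-CE16 (0.481).

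Dll1 (ENSRNOG00000059984), a ligand of arterial endothelium, ranged from 80.8 to 141 CPM (median 108) in sham libraries and from 57.8 to 146 CPM (median 81.3) in Glenn libraries. Its averaged log2 change of -0.30 (95% interval -0.56 to -0.03) did not pass the adjusted threshold (edgeR adjusted p 0.0575). It shrank to -0.097 in series A alone (adjusted p 0.676) and to -0.057 among libraries low in RT1-CE16 (0.829), and the deficient-diet change of -0.41 shrank to -0.018 (0.98) and -0.021 (0.974) in the same settings. Both settings held the same deficient-diet libraries. The averaged change did pass with no series term (-0.31, adjusted p 0.0454), with limma voom (-0.37, 0.00732), with the RT1-CE16 level as the term (-0.31, 0.0311) or with that level and sex (-0.28, 0.0304), and without any 1 of 7 libraries (sham control replicate 3, Glenn control replicate 2, sham deficient replicates 1 to 3, sham excess replicate 5 and Glenn excess replicate 1; adjusted p 0.00738 to 0.048). On the control diet it passed without Glenn control replicate 2 (-0.62, 0.0298), the Glenn control library with the most Dll1, at 136 CPM against 58.8 to 93.8 CPM in the others.

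Jag2 (ENSRNOG00000013927), the other Jagged ligand, ranged from 62.1 to 94.3 CPM (median 77.0) in sham libraries and from 33.6 to 122 CPM (median 81.6) in Glenn libraries. Its averaged log2 change was 0.08 (95% interval -0.16 to 0.31, edgeR adjusted p 0.625). Glenn deficient replicate 3, the library with the most Jag1, had the least Jag2, at 33.6 CPM against 81.6 to 122 CPM in the rest of its group, and without it Jag2 rose by 0.41 on the deficient diet (adjusted p 0.0292).

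The targets are shown with the 250 bases before the transcription start where RefSeq's rat promoter table (GRCr8) held the gene, because RBPJ binds DNA at the core TGGGAA. In capitals are the matches to TGGGAA on either strand (read as TTCCCA on the other).
Hes1, chr11:84213046-84213295, minus strand: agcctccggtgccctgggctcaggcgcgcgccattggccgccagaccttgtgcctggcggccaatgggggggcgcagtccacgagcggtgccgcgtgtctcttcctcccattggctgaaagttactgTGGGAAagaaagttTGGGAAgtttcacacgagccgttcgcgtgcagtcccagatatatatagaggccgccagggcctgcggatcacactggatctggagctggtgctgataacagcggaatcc
Hey2, chr1:28640850-28641099, plus strand: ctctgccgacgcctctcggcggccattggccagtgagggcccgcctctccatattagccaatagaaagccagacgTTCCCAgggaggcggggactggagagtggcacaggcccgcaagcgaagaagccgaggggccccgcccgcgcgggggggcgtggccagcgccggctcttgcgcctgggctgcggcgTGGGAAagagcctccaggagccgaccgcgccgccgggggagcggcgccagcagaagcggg
Heyl, chr5:140793021-140793270, plus strand: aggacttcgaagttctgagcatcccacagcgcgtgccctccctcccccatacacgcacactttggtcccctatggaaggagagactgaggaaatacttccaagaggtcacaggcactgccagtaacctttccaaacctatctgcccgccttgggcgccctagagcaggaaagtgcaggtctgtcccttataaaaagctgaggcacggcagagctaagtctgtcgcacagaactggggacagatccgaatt
Hes1 carried 2 matches on its own strand, whose first bases were 123 and 109 bases before the start. Hey2 carried 2 in opposite orientations, 175 and 60 bases before it, and Heyl held 0. Of the 8 Notch genes matched in the table (Dll4 and Hey1 had no entry), 4 (Hes1, Hey2, Dll1 and Notch4) held the core, each with 2 matches, against 22.1% of all 33469 promoter entries with at least 1 and 2.71% with at least 2. Among 59 genes of the wider pathway list described below, 15 held it. The longer core GTGGGAA, which contains TGGGAA, occurred in Hes1, Hey2 and Dll1 and in 5.27% of entries. Of the 4 Notch genes with the core, Hes1 and Notch4 rose, while Hey2 and Dll1 did not pass the test, and a match describes only the letters in this window.

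Hes1 (ENSRNOG00000001720), a repressor that keeps cells undifferentiated, ranged from 195 to 377 CPM (median 278) in sham libraries and from 256 to 439 CPM (median 324) in Glenn libraries. It rose by 0.25 on the log2 scale on average (SE 0.07, edgeR adjusted p 0.00234). Diet by diet the change was 0.25 (control), 0.24 (deficient) and 0.26 (excess), and it passed on none alone (adjusted p 0.104, 0.124 and 0.137). Among the libraries low in RT1-CE16 the averaged change was 0.22 and missed the threshold (adjusted p 0.0733), and the control-diet change was 0.11 (0.761). Single diets passed in other settings: control without sham control replicate 1 (0.33, 0.0339), deficient with only those 2 groups fitted (0.26, 0.0344) and excess with the RT1-CE16 level as the term (0.30, 0.0352).

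Hey1 (ENSRNOG00000062882), an endothelial target that is also induced by BMP signals, held 179, 207, 182, 193 and 169 CPM in the sham libraries on the excess diet and 344, 312, 201, 272 and 212 CPM in the Glenn libraries. There, 4 of 5 Glenn libraries lay above every sham library, and the change was 0.63 (SE 0.14, edgeR adjusted p 0.00119). On the control diet Hey1 was at 181 ± 27.1 CPM in sham libraries and 217 ± 28.8 CPM in Glenn libraries, and on the deficient diet at 172 ± 24.7 and 214 ± 26.9 CPM (SD, n = 5 each). The changes there were 0.26 (SE 0.13) and 0.29 (SE 0.13), with edgeR adjusted p 0.137 and 0.0887. Averaged over diets Hey1 rose by 0.39 (SE 0.07, adjusted p 6.67e-05). On the deficient diet the change shrank to 0.10 in series A alone (0.709) and to 0.099 among libraries low in RT1-CE16 (0.696), and it passed with limma voom (0.34, 0.0342) and without sham deficient replicate 4 (0.36, 0.0469) or Glenn deficient replicate 3 (0.37, 0.0275). Series A and low RT1-CE16 held the same libraries on this diet.

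Hey2 (ENSRNOG00000013364), a relative of Hey1 that marks arterial fate, was lower in level, at 10.2 to 23.7 CPM in sham libraries and 10.4 to 28.0 CPM in Glenn libraries. Its averaged log2 change was 0.16 (95% interval -0.11 to 0.43, edgeR adjusted p 0.327). On the excess diet, where 3 of 5 Glenn libraries were above every sham library, it was 0.52 (SE 0.26, adjusted p 0.151), and 0.33 in series A alone (0.516). Among libraries low in RT1-CE16 the averaged change was 0.32 (0.165) and the deficient-diet change 0.45 (0.362), against 0.07 with all libraries.

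Heyl (ENSRNOG00000015318), the third Hey gene, rested on 144 to 1565 estimated counts per library. On the control diet it held 7.75, 6.29, 6.62, 8.50 and 8.69 CPM in sham libraries and 14.1, 14.9, 16.8, 16.1 and 23.1 CPM in Glenn libraries. On the deficient diet the values were 8.84, 8.77, 11.3, 8.40 and 7.88 CPM against 22.7, 18.3, 39.7, 14.8 and 20.5 CPM. On the excess diet they were 5.68, 6.33, 3.92, 8.54 and 11.6 CPM against 12.6, 19.8, 16.4, 28.5 and 36.5 CPM. No Glenn library fell to the level of any sham library on any diet.

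The log2 changes of Heyl were 1.17 (SE 0.28, edgeR adjusted p 0.00214), 1.38 (SE 0.29, 0.000535) and 1.61 (SE 0.32, 0.000412) on the 3 diets in that order and 1.39 (SE 0.16, 5.5e-08) on average. Without Glenn deficient replicate 3, its highest library, they were 1.11 on the deficient diet (adjusted p 0.00187) and 1.27 on average (5.76e-08). The control-diet call was lost among the libraries low in RT1-CE16 (1.14, adjusted p 0.0858), where 2 sham stand against 3 Glenn libraries. The excess-diet call was lost when only those 2 groups were fitted (1.18, 0.0599).

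Heyl moved together with markers of mural cells, which a CD31 selection should not enrich. All 12 mural markers rose in Glenn libraries (averaged over diets, median log2 change 1.53), among them the smooth muscle genes Acta2 (2.01) and Myh11 (1.999) and the pericyte receptor Pdgfrb (0.91), and none of the 12 was at 0 in every library. Their summed level was 250 to 369 CPM in sham and 555 to 858 CPM in Glenn libraries on the control diet. It was 270 to 315 and 622 to 1728 CPM on the deficient diet and 184 to 296 and 539 to 1147 CPM on the excess diet. The 1728 CPM were those of Glenn deficient replicate 3, the library with the most Heyl and Jag1.

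Within the 6 groups, as deviations from each group's mean of log2(CPM + 1) over the 30 libraries, Heyl followed the mural sum with a Pearson correlation of 0.81 (Spearman 0.77). It was 0.71 without the 2 libraries farthest from the median of the sum. Jag1 had 0.60 (Spearman 0.32), which fell to 0.28 without those 2 libraries, and Hey2 had 0.62 (Spearman 0.53) and then 0.52. Hey1 ran against the sum (-0.56, Spearman -0.53, and -0.44), and Dll4 was at -0.13 (Spearman -0.14, and -0.14). Other marker sums were followed as well (values in the same order, each without the 2 libraries farthest from that sum's median). Jag1 followed the arterial sum (0.65, Spearman 0.55, and 0.58) and also the venous sum (0.54, Spearman 0.64, and 0.53). Notch1 followed the venous sum (0.64, Spearman 0.67, and 0.70) and also the general capillary sum (0.64, Spearman 0.50, and 0.52). These values therefore do not tie Jag1 or Notch1 to a single marker list. Hey1 followed the general capillary sum (0.62, Spearman 0.58, and 0.53). Hes1 ran against the leukocyte sum (-0.75, Spearman -0.65, and -0.70). That sum was low, at 8.74 to 69.1 CPM in sham libraries and 17.6 to 56.7 CPM in Glenn libraries. All these correlations are descriptions without a test, over points that share a library and its scaling. The part of mural RNA in the rise of Heyl was not tested.

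**Figure D3:**
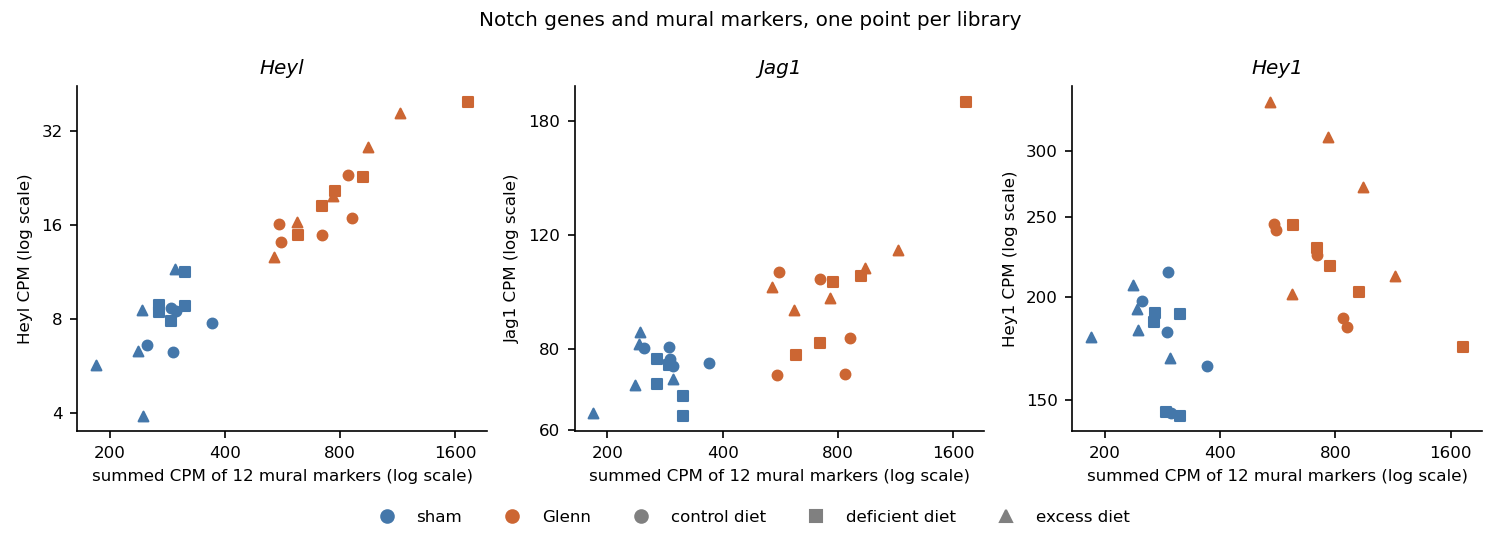
Heyl, Jag1 and Hey1 in CPM (vertical axes, log scale) against the summed CPM of 12 mural markers (horizontal axis, log scale), with 1 point per library, blue for sham and orange for Glenn surgery. Glenn libraries lie to the right of all sham libraries, at 538.5 to 1728 CPM against 184 to 368.9 CPM. Within groups Heyl ran with the sum (Pearson 0.81) and Hey1 against it (-0.56).

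Most other marker lists moved as well in the averaged contrast, in which 23.4% of all genes rose and 24.7% fell. Of 9 arterial markers, 3 of which (Gja4, Gja5 and Efnb2) are also counted as Notch targets here, 6 rose and 3 fell, and the sum was 1004 to 1323 CPM in sham libraries and 1135 to 2169 CPM in Glenn libraries. On the control diet, however, the median arterial sum was 1216 CPM in sham and 1195 CPM in Glenn libraries. It was 1118 and 1567 CPM on the deficient diet and 1145 and 1786 CPM on the excess diet. The 7 lymphatic markers all rose, with a sum of 1099 to 2023 against 2494 to 5124 CPM. Of 7 general capillary markers 5 fell, with a sum of 6584 to 9756 CPM in sham libraries and 3006 to 6728 CPM in Glenn libraries. Of 8 aerocyte capillary markers 2 rose and 5 fell (1710 to 2851 against 1116 to 1650 CPM), and of 8 venous markers 1 rose and 6 fell (2206 to 3387 against 1035 to 2527 CPM). Of the 10 general endothelial markers 4 rose and 5 fell. Outside the endothelium, 7 of 8 fibroblast markers rose (1280 to 3269 against 1818 to 4703 CPM) and 5 of 6 type 1 epithelial markers rose while 1 fell (649 to 1087 against 754 to 2037 CPM). All 8 type 2 epithelial and all 5 platelet markers fell on average. On the control diet, however, the median type 2 sum was 44670 CPM in sham and 45570 CPM in Glenn libraries. It was 45960 and 30460 CPM on the deficient diet and 48610 and 31370 CPM on the excess diet. Of 7 airway markers 2 rose and 1 fell, 1 of 6 leukocyte and 1 of 2 erythroid markers tested rose, and 0 of 4 mesothelial markers changed. Their part in the changes of the Notch genes was not tested.

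For each of the 10 genes, the other genes whose deviations from the group means followed it most closely over the 30 libraries were looked up among 12719 genes, as a description. Heyl was followed by Pdgfrb (Pearson 0.91, Spearman 0.87) and Atp1b2 (0.89 and 0.82). Notch1 and Notch4 shared their closest gene, Dync1h1 (Pearson 0.88 and 0.82; Spearman 0.83 and 0.75), and followed each other with 0.75 (Spearman 0.63). Next came Arhgap23 for Notch1 and Pcdh19 for Notch4. Dll4 was closest to Mbd1 and Snx33, Dll1 to Hsph1 and Epha2, Jag1 to Ppp1r12a and Fbn1, and Jag2 to Ybx3 and Chsy1. Hey1 was closest to Ccdc85a and Ccrl2, Hey2 to Fbln2 and Atp2a3, and Hes1 to Neurl3 and Polr2f, with Pearson correlations of these from 0.73 to 0.86. Rank correlations were lower for Jag2 (Ybx3 0.86, Spearman 0.59, and Chsy1 0.85, Spearman 0.63) and for Jag1 with Ppp1r12a (0.80, Spearman 0.60). Glenn deficient replicate 3 was the lowest library for Jag2 and the highest for Jag1, and these likenesses were not recomputed without it. Hey1 and Heyl went in opposite directions (-0.53, Spearman -0.49).

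The wider pathway was described with 67 further genes, of which 63 passed the filter on low counts (Dll3, Dlk2, Hes3 and Hes5 did not). Averaged over diets 39 of the 63 changed, 20 upward and 19 downward, which is 61.9% against 48.2% of all genes, and their median log2 change was -0.005 against -0.01. Of all genes 23.4% rose and 24.7% fell in this contrast, and several of the counts by role given below lie near these shares.

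Of the other receptors, Notch3, the receptor of mural cells, rose from 23.8 ± 5.55 to 68.2 ± 38.2 CPM (SD, n = 15 per operation; log2 change 1.52 with SE 0.20, edgeR, adjusted p 5.62e-07). Every Glenn library was above every sham library, as for Heyl, and all 12 mural markers rose in the same contrast, whose part in this rise was not tested. Notch2 stood at 42.3 ± 6.96 and 47.4 ± 9.17 CPM (0.13, adjusted p 0.23).

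Among 2 non-canonical ligands tested, Dlk1, a membrane protein that can hold Notch back, fell from 23.2 ± 12.3 to 4.76 ± 3.13 CPM (SD, n = 15 per operation; log2 change -2.32 with SE 0.31, edgeR, adjusted p 7.7e-07), with overlapping libraries. Of 5 genes that act on the ligands, 1 rose and 2 fell, with Neurl1b, a ubiquitin ligase for ligands, at 0.77 (adjusted p 7.54e-08) and Mib1, the main such ligase, at -0.20 (0.0154). Of 6 genes for sugars on Notch, 2 rose and 2 fell. Pofut1, which adds the first fucose, rose by 0.52 (adjusted p 6.88e-09), Lfng, a fringe enzyme that tunes the receptor toward Delta ligands, fell by 0.42 (1.13e-05), and Mfng was at 0.08 (0.295).

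Of 9 genes for the cutting of Notch, 4 rose and 3 fell. Psen2, a catalytic subunit of gamma-secretase, rose from 16.2 ± 1.66 to 22.3 ± 2.65 CPM (log2 change 0.47, edgeR adjusted p 2.14e-07), and Adam17, a sheddase, fell from 184 ± 17.0 to 135 ± 11.4 CPM (SD, n = 15 per operation; -0.44, 2.71e-09) with no overlap. In the nuclear complex 3 of 7 fell and 0 rose, with Kat2b, an acetyltransferase, at -0.38 (adjusted p 4.11e-08). Rbpj itself stood at 77.4 ± 5.45 CPM in sham libraries and 75.2 ± 6.73 CPM in Glenn libraries (SD, n = 15 per operation; -0.04, 95% interval -0.13 to 0.05, adjusted p 0.516), and its sign turned in series A alone (0.02) and among libraries low in RT1-CE16 (0.06). Of 12 repressor genes 3 rose and 3 fell, and among those that fell was the corepressor Tle4 (-0.47, edgeR adjusted p 2.42e-08).

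Among 11 genes of turnover and inhibition 5 rose and 2 fell. Numb, an adaptor that removes Notch from the membrane, fell from 217 ± 21.5 to 106 ± 8.24 CPM (SD, n = 15 per operation; log2 change -1.04 with SE 0.05, edgeR, adjusted p 1.16e-16), without overlap and by -1.06, -1.05 and -1.003 on the 3 diets in the order control, deficient, excess. Dtx1, a ubiquitin ligase that binds Notch and is also its target, rose from 4.502 ± 1.21 to 15.3 ± 3.53 CPM (1.81, SE 0.12, adjusted p 1.47e-13), again without overlap, by 1.76, 1.95 and 1.71. Nrarp, an inhibitor that Notch induces, rose from 280 ± 41.1 to 348 ± 56.9 CPM (0.31, SE 0.08, 0.00204). Egfl7, an endothelial secreted protein that binds Notch, fell from 524 ± 73.6 to 350 ± 48.6 CPM (-0.57, SE 0.07, 3.54e-08).

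Of 9 further targets tested, 4 rose and 3 fell. Hes2, a little-studied relative of Hes1, had 0 to 12 estimated counts per sham library (72 in all 15) and 54 to 237 per Glenn library (1944 in all). Its level was 0.12 ± 0.08 against 3.12 ± 1.24 CPM (SD, n = 15 per operation), or 4.73 on the log2 scale (SE 0.26, edgeR adjusted p 3.02e-15) that rests on few sham counts. On the control, deficient and excess diets it was 4.55, 6.20 and 3.45, with no overlap on any. The 250 bases before the start of Hes2 held no match to TGGGAA.

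The arterial targets went apart. Efnb2, an arterial ephrin, fell from 181 ± 24.6 to 110 ± 21.9 CPM (SD, n = 15 per operation; log2 change -0.70 with SE 0.09, edgeR, adjusted p 1.1e-07), and Gja4, the gene of connexin 37, from 195 ± 37.3 to 134 ± 34.7 CPM (-0.54, SE 0.11, 0.000312). Unc5b, a netrin receptor of arteries and tip cells, rose from 166 ± 15.9 to 236 ± 57.4 CPM (0.47, SE 0.09, 7.21e-05). Gja5, the gene of connexin 40, rose on average by 0.39 (SE 0.10, 0.00244), made up of -0.32 (control), 0.54 (deficient diet) and 0.97 (excess; adjusted p 0.199, 0.0284 and 0.000591). The interaction of surgery and diet for Gja5 had an unadjusted p of 0.000119 and did not pass over all genes (adjusted p 0.245).

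**Figure D4:**
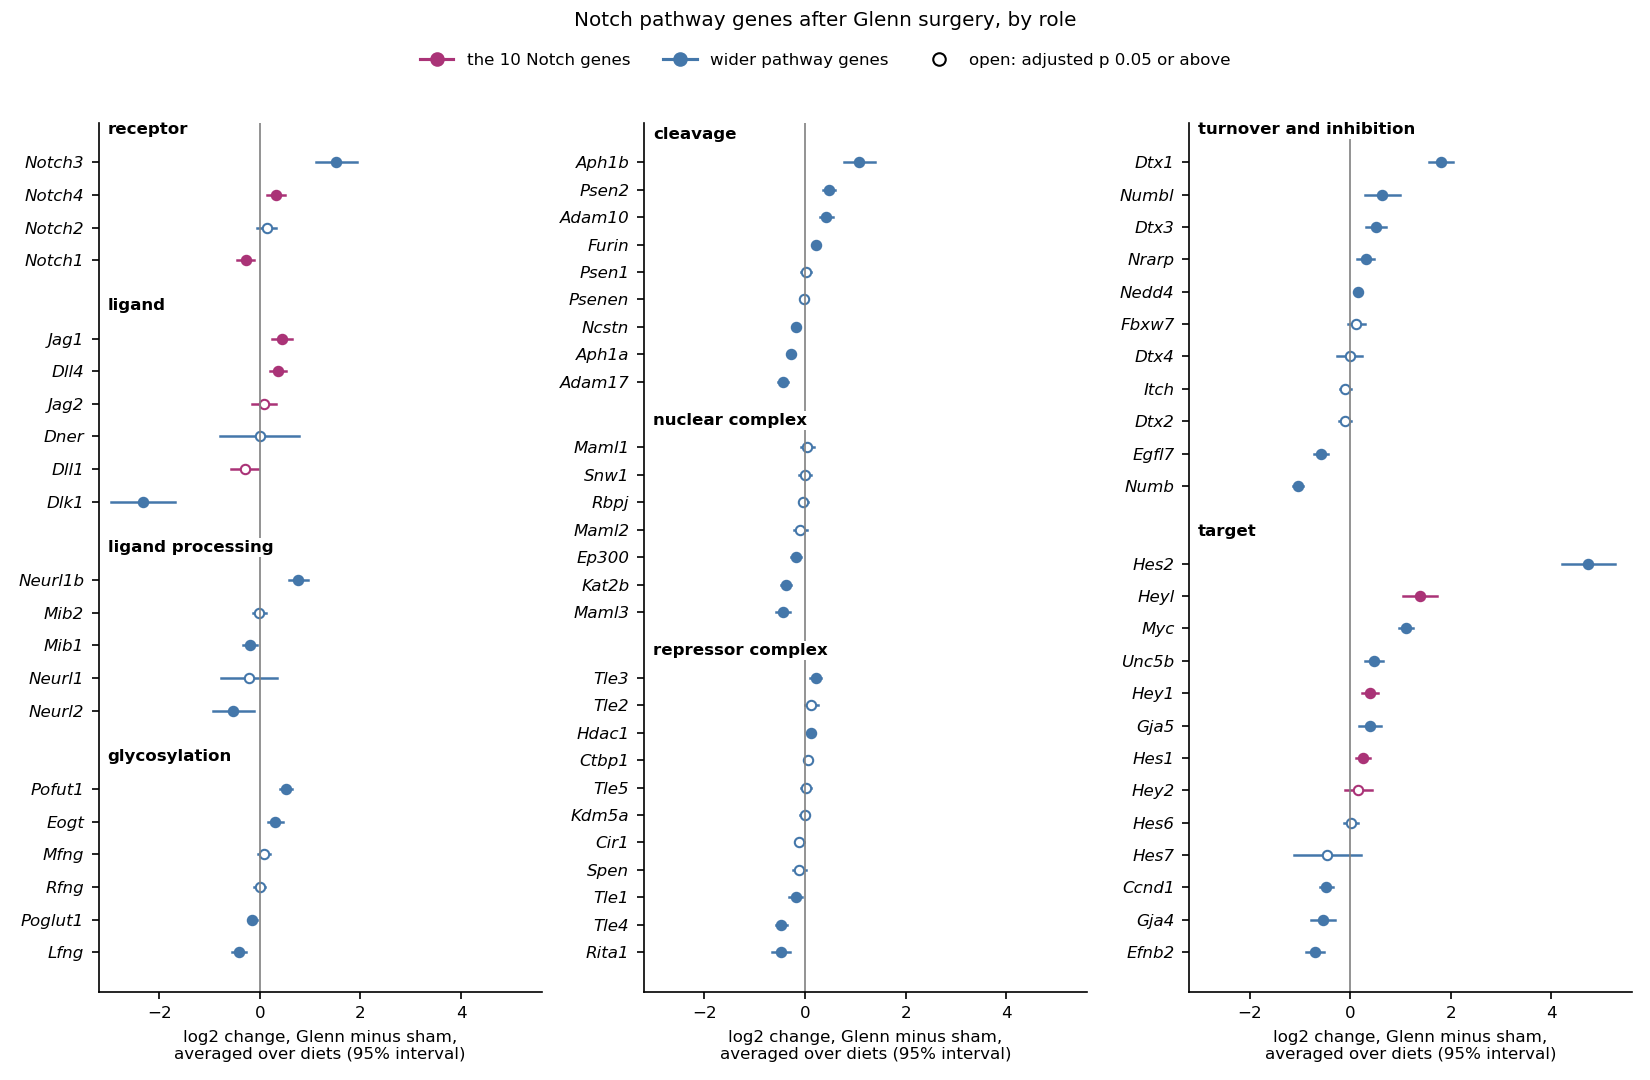
Log2 change in Glenn libraries averaged over diets (horizontal axis, 95% intervals) for the 10 Notch genes (purple) and 62 wider pathway genes (blue), grouped by role, with filled points for those that passed the test. Rises and falls occur in most roles, and Hes2 (4.73), Dtx1 (1.81), Notch3 (1.52) and Heyl (1.39) are farthest right.

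Diet on its own changed none of the 10 Notch genes past the threshold. In the 6 comparisons between diets, 3 within sham and 3 within Glenn surgery, 0 of the 10 were called by edgeR. Of all genes, 0% (deficient against control), 0.241% (excess against control) and 0.0124% (excess against deficient) were called in the sham libraries, and 0.00618%, 1.47% and 0% in the Glenn libraries. These comparisons share libraries within each operation. At an unadjusted p under 0.05 there were, in the same order, 0, 1 and 0 of the 10 in the sham libraries, against 5.22%, 11.1% and 5.28% of all genes. In the Glenn libraries there were 1, 2 and 1, against 9.88%, 13.9% and 5.18%. By DESeq2 and by limma voom 0 were called in each of the 6.

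The gene nearest to a diet effect was Hes1. In sham libraries it was at 244 ± 43.4 CPM (control diet), 275 ± 28.2 CPM (deficient) and 314 ± 42.7 CPM (excess), and in Glenn libraries at 291 ± 44.7, 331 ± 24.3 and 357 ± 50.1 CPM (SD, n = 5 each). Its excess-minus-control log2 changes were 0.36 (95% interval 0.13 to 0.60, edgeR adjusted p 0.184) in sham libraries and 0.37 (0.12 to 0.63, 0.132) in Glenn libraries, and the libraries overlapped in both. Hey1 differed by 0.41 between the same diets in Glenn libraries (0.13 to 0.69, adjusted p 0.139) and by 0.04 in sham libraries (-0.22 to 0.30, 0.942). In series A alone, where 2 Glenn excess libraries remain, the Glenn difference of Hey1 passed the test, and without Glenn control replicate 2 that of Hes1 did.

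Jag1 was 0.39 higher on the deficient than on the control diet in Glenn libraries (95% interval 0.05 to 0.73, edgeR adjusted p 0.42), with Glenn deficient replicate 3 as its highest library. In the wider list Gja5 was the single gene of 63 called between diets, at 392 ± 86.6 CPM (excess diet) against 261 ± 84.8 CPM (control diet; SD, n = 5 each) in Glenn libraries and so higher, by 0.81 (SE 0.20, edgeR adjusted p 0.0344) and with overlapping libraries. That is 1.59% of the wider list, near the 1.47% of all genes called in the same comparison.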

How the data were processed

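Libraries were made with the SMART-Seq Ultra Low v4 kit from RNA of CD31-positive lung cells, per the labels' protocols. The authors deposited estimated counts per gene, from Salmon by the name of the deposited table, of which 13.6% were not whole numbers. The submitters' processing notes also name FastQC, Trim Galore, Picard and STAR and the build mRatBN7.2 (rn7), while versions, annotation release and strandedness are not given in the sources used here. Reads that fit near-identical or overlapping genes are shared out by estimate.

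Estimated counts were rounded, filtered in edgeR 4.0.16 with filterByExpr (at least 10 counts, at least 15 in total; 16171 of 30562 rows stayed) and scaled by TMM. The edgeR quasi-likelihood fit (estimateDisp, robust glmQLFit with legacy = TRUE) held all 30 libraries, with group means and an additive term for library series, and p-values were adjusted by Benjamini-Hochberg over all genes. Standard errors are the ratio of the log2 change to the root of F. Within groups the 60 library pairs had a chi-square per degree of freedom of 20.1 to 119, above sampling noise. Libraries were called high in RT1-CE16 above 100 CPM, and sex was read from Ddx3y at 10 CPM.

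The 10 genes, the wider list, the marker lists and the tests were chosen with earlier results of these data known. Besides the 10, the text names 11 preset pathway genes, the raised and the lowered gene with the smallest adjusted p in each role, and for each Notch gene the 2 closest genes among those of at least 1 CPM. Of these, 1 pathway gene is not reported here. The percentage for the wider list is its count of calls over its genes tested. Alternatives were leaving out the series term, DESeq2 1.42.0, its size factors in edgeR, series A alone, limma 3.58.1 voom with quality weights, no filter, only the groups compared, a replicate block, the RT1-CE16 level (with and without sex) as the term, RT1-CE16-low libraries alone, legacy = FALSE and leaving out each library. In counts drawn for 16171 genes with 200 changed, edgeR recovered 67 of 100 at 1.5-fold and 80 of 100 at 2-fold in the averaged contrast, with 6 false calls. Far fewer genes were changed there than the 48.2% called in the data, and no series effect was drawn. Changes under 1.5-fold, as in most of the Notch genes called, were not drawn either, so these rates do not carry over to the data. R 4.3.3 was used.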

Additional observations from a re-analysis of the deposited data

Results flagged for a closer look

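In 60 sets of 5 libraries (10 genes in 6 groups) 3 held an extreme library, where chance (about 1 in 20) gives about 3. The number given is the gap between that library and the next, over the range of the set. Dll4 was low in sham control replicate 1 (0.719; 285 against 403 to 449 CPM), Heyl was high in sham deficient replicate 3 (0.721; 11.3 against 7.88 to 8.84 CPM), and Jag1 was high in Glenn deficient replicate 3 (0.779; 193 against 78.1 to 104 CPM).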

How the results depend on the processing

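Of the 7 Notch genes called in the averaged contrast, all kept their direction under the 11 alternatives run for it and without each of the 30 libraries, and calls were lost only for Notch1 and Hes1, in RT1-CE16-low libraries, where 5 of the 10 were called. Counts of called genes on single diets depended more on the setting. On the deficient diet 2 were called in place of 4 in series A alone and among RT1-CE16-low libraries, and 2 to 5 when 1 library was left out. With the control diet 1 was called in place of 2 among RT1-CE16-low libraries. Fewer libraries entered these fits, and on the deficient diet series A and low RT1-CE16 held the same ones. For excess against control 1 was called in place of 0 in series A alone after Glenn surgery, 0 to 1 when 1 library was left out after Glenn, and 1 with the replicate block after sham (Hes1).

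Signs turned only in genes that were not called. For Dll1 on the excess diet the log2 change of -0.12 became 0.077 in series A alone, 0.060 with the RT1-CE16 level and sex, 0.077 among RT1-CE16-low libraries and 0.072 with only the groups compared. For Hey2 it became -0.063 on the deficient diet with limma voom and, with RT1-CE16-low libraries alone, 0.18 on the control diet. For Jag2 it became -0.014 with limma voom and -0.066 with the replicate block on the excess diet, and 0.068 on the control diet with RT1-CE16-low libraries alone. With 1 library left out, Hey2 ranged from -0.24 to 0.041 on the control and -0.083 to 0.26 on the deficient diet, and Jag2 from -0.15 to 0.0062 on the control, -0.011 to 0.13 on the excess diet and -0.0073 to 0.16 on average. The cause was not tested.

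Same-numbered libraries of different groups correlated from -0.246 to 0.292 (median 0.104, 38 of 75 pairs over 0.1) and differently numbered ones from -0.42 to 0.406 (median -0.024, 52 of 300 over 0.1). Not every same-numbered pair was over 0.1 and the labels give the numbers no meaning, so the libraries were not treated as paired. Of the 30 libraries, 15 correlated best with their own number, although same-numbered pairs were fewer (75 against 300). In every group replicate 1 was male and low in RT1-CE16, and replicate 2 was female and low. Series B held only replicates 3 to 5. Pairing and these shared traits cannot be told apart here. With the replicate block 7 genes were called on average, 3 for the control, 5 for the deficient and 4 for the excess diet (Dll4 lost on the deficient diet; Hes1 gained on the control, Hey1 and Hes1 on the deficient and Dll4 on the excess diet). Over all genes, RT1-CE16-low libraries gave 1563 calls on the control and 2398 on the deficient diet, against 4023 and 4423, and 2152 for excess against 3549, the 2 groups alone gave 1960 on the excess diet, and series A gave 2553 (deficient) and 2270 (excess). Heyl, with 144 to 1565 counts, had the least depth of the 10.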
